A study of Mus musculus with 30 samples.

Results

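The comparison described here set wild type macrophages given IL-4 together with the potassium ionophore valinomycin against wild type macrophages left unstimulated, and asked what is left of the IL-4 program with the ionophore present. Its members were the 6 libraries, of 30 in the series, whose titles place them in these groups, 3 in each. The cells were bone marrow derived macrophages of C57BL/6 mice, grown in CSF-1 at 20 ng/mL and used on day 7, and CSF-1 was present in both groups. The unstimulated group received CSF-1 alone. The other group also received IL-4 at 20 ng/mL and valinomycin at 10 nM. The labels used here give no length of stimulation. A group with IL-4 alone (3 libraries, same strain, dose and CSF-1) stands beside them, and no group with valinomycin but without IL-4 was analysed here, so a change against unstimulated cells cannot be divided between the agents from these 6 libraries alone. IL-4 and unstimulated libraries of macrophages transduced with a control short hairpin RNA (shRNA), 3 of each, served to define the IL-4 program outside the wild type libraries. The same groups of macrophages with an shRNA against Etv1 gave an alternative definition. Wild type and shRNA libraries given IL-4 with prostaglandin E2 (PGE2) at 10 uM entered the model fits but no comparison shown here.

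IL-4 binds a receptor whose alpha chain is encoded by Il4ra. Janus kinases on the receptor phosphorylate the transcription factor STAT6, which dimerizes, enters the nucleus and turns on genes of alternative activation, the macrophage state of helminth infection and tissue repair. Valinomycin carries potassium ions across membranes and lowers the electrical potential across the inner mitochondrial membrane, on which ATP synthesis and protein import depend.

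The 6 libraries held 10514496 to 13414293 counts, so 3 counts in a library, the limit that a count of 0 allows, corresponded to 0.224 to 0.285 CPM, counts scaled to a common library size. Mitochondrial ribosomal RNAs took 0.751 to 0.846% of reads in the libraries with valinomycin, 0.0389 to 0.0444% in unstimulated and 0.019 to 0.0324% in IL-4 libraries. The 20 macrophage identity genes summed to 26970 to 27570 CPM in unstimulated and 27480 to 28430 CPM in valinomycin libraries. Markers of other cells summed far lower. Those of lymphocytes gave 15.5 to 16.6 CPM in unstimulated and 11.1 to 13.0 CPM in valinomycin libraries (1 of 4 tested markers higher and 3 lower, with Gzma at 0, and 1 of these 4 calls remained with DESeq2 or without unstimulated replicate 1 or 3 or valinomycin replicate 3). Neutrophil markers summed to 368 to 391 and 369.7 to 460.1 CPM (3 of 11 higher, 4 lower, beside 26.9% and 25.8% of all tested genes). Dendritic cell markers summed to 105 to 118 and 120.1 to 126 CPM (1 of 5 higher and 1 lower, the latter lost with DESeq2 and without unstimulated replicate 1 or 3 or valinomycin replicate 1 or 2). Erythroid and megakaryocyte markers gave 316 to 322 and 177 to 202 CPM, nearly all of it from Pf4, with Hbb-bs at 0. Stromal markers summed to 13.0 to 14.1 and 64.5 to 75.9 CPM, where Pecam1 was the 1 member called and Lum was at 0. With IL-4 alone Pecam1 rose too, and Kdr fell. Only Kit was tested among mast cell and basophil markers and it was not called, with Fcer1a, Mcpt4 and Tpsab1 at 0. In such bulk samples fewer cells of a type and less RNA per cell cannot be told apart, and the part of these cells in the results was not tested.

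Of 12824 genes tested with edgeR's quasi-likelihood test, 6760 (52.7%) differed between IL-4 with valinomycin and no stimulus at an adjusted p under 0.05, the threshold for a call throughout. Of these 3446 (26.9%) were higher and 3314 (25.8%) lower, and 1151 (8.98%) changed 2-fold or more, 724 (5.65%) of them upward and 427 (3.33%) downward. The same counts for IL-4 alone were 5952 called (46.4%), of which 3084 (24%) higher and 2868 (22.4%) lower, and 939 (7.32%) changed 2-fold or more, 561 (4.37%) upward and 378 (2.95%) downward. A direct comparison of IL-4 with valinomycin against IL-4 called 4919 genes (38.4%), 2491 (19.4%) higher and 2428 (18.9%) lower. Few of these were large: 247 (1.93%) reached 2-fold, 194 (1.51%) upward and 53 (0.413%) downward, or 35 downward when DESeq2 was used. The 3 wild type comparisons share libraries, so their values are set side by side and no overlap between them is read as a result. The shares of all genes given here are the background for the counts in gene lists below.

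Principal components of the 9 wild type libraries placed the groups apart. The first, with 65.3% of the variance, put unstimulated libraries at -47.1 to -48.1, IL-4 libraries at 20.2 to 20.6 and valinomycin libraries at 25.7 to 28.8. The second, with 16.3%, put valinomycin libraries at 19.5 to 19.7, IL-4 libraries at -20.6 to -22.4 and unstimulated libraries between them at 1.09 to 2.52.

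**Figure D1:**
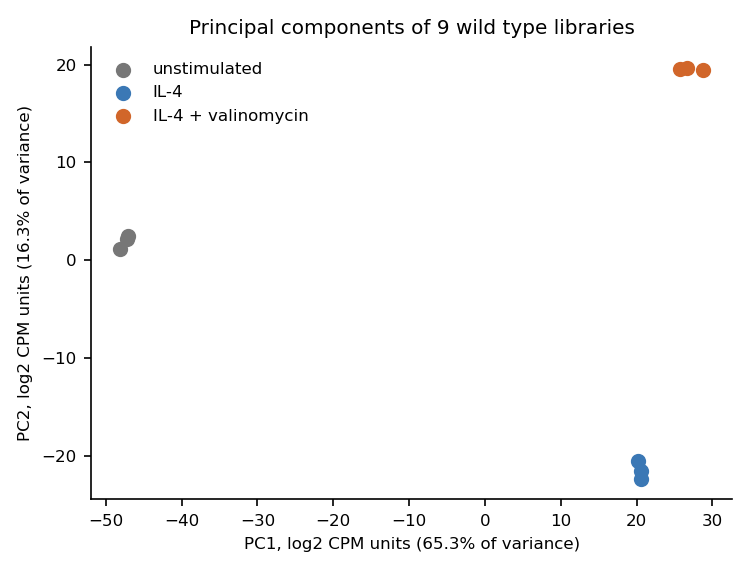
First (x) and second (y) principal component of log2 CPM in 9 wild type libraries, 1 point per library, coloured by group. Unstimulated libraries lie at about -47 to -48 on the first component, and the libraries with IL-4 and with IL-4 plus valinomycin lie on its positive side and part along the second.

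Most of the IL-4 program was present with the ionophore. The program was taken from the control shRNA libraries, which share no sample with the wild type ones, where IL-4 called 4247 of 12382 tested genes (34.3%), 2130 (17.2%) upward and 2117 (17.1%) downward. It holds the 1013 of them (8.18%) that changed 2-fold or more, 558 raised (4.51%) and 455 lowered (3.67%). Of the 558 raised genes, 522 could be tested in wild type cells, and the other 36 had at most 29 counts summed over the 3 libraries of any wild type group. With IL-4 and valinomycin 463 of the 522 (88.7%) were higher than in unstimulated cells, against 26.9% of all tested genes, 9 were lower and 50 were not called. Their median log2 fold change was 1.44 (quartiles 0.87 and 2.40), against -0.01 over all tested genes. With IL-4 alone 468 of the 522 (89.7%) were higher, with a median of 1.46. Library by library, the median of these genes stood 1.40, 1.40 and 1.38 log2 units above the unstimulated mean with valinomycin, and 1.47, 1.42 and 1.38 with IL-4 alone, ranges that overlap.

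The lowered side of the program was present less completely. Of its 455 genes 404 were tested, and the other 51 had at most 34 counts in any wild type group. With IL-4 and valinomycin 293 (72.5%) were lower than in unstimulated cells, against 25.8% of all tested genes, 16 were higher and 95 were not called, with a median log2 fold change of -0.81. With IL-4 alone 343 (84.9%) were lower, with a median of -0.90. The library medians were -0.76, -0.76 and -0.80 with valinomycin and -0.84, -0.89 and -0.88 with IL-4, and these did not overlap. The order of the group medians depended on the definition. With the program defined in Etv1 shRNA cells they were -0.78 with valinomycin and -0.75 with IL-4. The direct comparison against IL-4 called 106 of the 404 higher (26.2%) and 41 lower (10.1%), with 19 upward and 1 downward past 2-fold. Among the 522 raised genes it called 117 higher (22.4%) and 130 lower (24.9%), with 10 and 9 past 2-fold. The shares of all tested genes were 19.4% higher and 18.9% lower, and 1.51% and 0.413% past 2-fold. Both shares of the raised genes lay somewhat above those of all genes. Among the lowered genes the share called higher lay above and the share called lower below. Across 11906 genes tested in both experiments, Pearson's r between the control shRNA IL-4 change and the wild type change was 0.719 with valinomycin and 0.818 without. Those values describe genes, which are not independent replicates. The 16 lowered program genes that were higher became 10 when unstimulated replicate 3 was left out and 9 when valinomycin replicate 2 was left out.

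**Figure D2:**
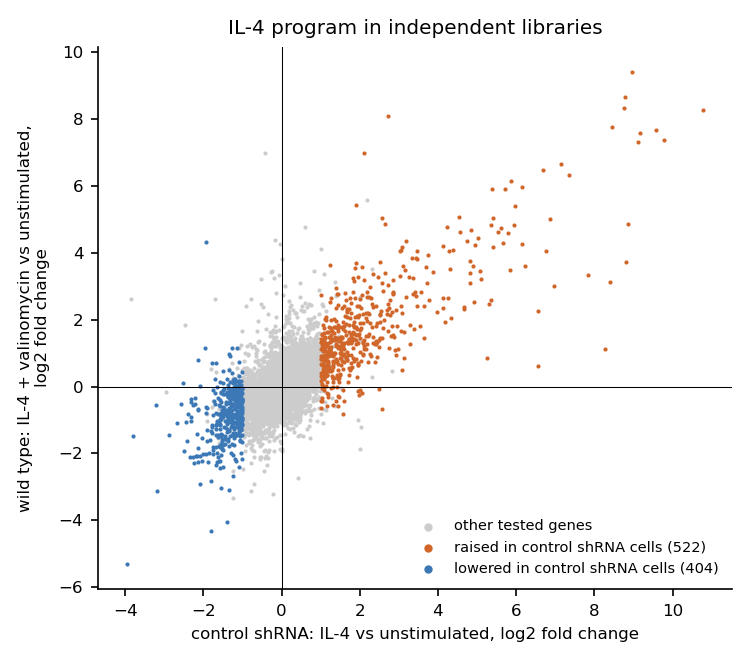
Log2 fold change for each gene tested in both experiments, IL-4 against unstimulated in control shRNA cells (x) and IL-4 plus valinomycin against unstimulated in wild type cells (y), with the 522 raised and 404 lowered program genes coloured. Raised genes lie mostly above 0 on y (463 called higher), while the lowered genes reach across 0 more often (16 called higher and 95 not called).

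Genes of the receptor chain and its feedback moved in both directions. Of 28 tested, 11 rose and 9 fell against unstimulated cells, beside 26.9% and 25.8% of all genes, with a median log2 fold change of 0.05, and with IL-4 alone 13 rose and 7 fell. Il4ra, the receptor's alpha chain, read 129.6, 141 and 142 CPM without stimulus, 329, 342 and 327 CPM with IL-4 and 313, 323 and 303 CPM with IL-4 and valinomycin (log2 fold change 1.19, SE 0.05, edgeR adjusted p = 1.15e-15). The valinomycin libraries lay wholly above the unstimulated ones, and the difference from IL-4 alone, -0.09 (SE 0.05, edgeR adjusted p = 0.161), did not pass the test. Jak2, a kinase of cytokine receptors, rose from 41.8, 41.3 and 37.1 CPM to 132, 147 and 135 CPM (log2 fold change 1.78, SE 0.06, edgeR adjusted p = 1.06e-17). Stat6 itself fell, from 358, 346 and 339.6 to 281, 284 and 278 CPM (log2 fold change -0.31, SE 0.04, edgeR adjusted p = 1.91e-06), and its change with IL-4 alone was -0.34.

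Socs1 and Cish, whose SOCS family products restrain receptor signalling, both rose. Socs1 read 1.02, 0.931 and 0.953 CPM unstimulated, 105, 113 and 106 CPM with IL-4 and 53.8, 62.7 and 60.7 CPM with valinomycin added (log2 fold change 5.91, SE 0.14, edgeR adjusted p = 8.36e-20). All 3 valinomycin libraries lay between the other groups, and Socs1 was lower than with IL-4 alone (log2 fold change -0.88, SE 0.07, edgeR adjusted p = 8.66e-10). Cish, the other of the pair, went from 1.02, 0.465 and 0.513 to 67.6, 68.2 and 67.2 CPM (log2 fold change 6.65, SE 0.14, edgeR adjusted p = 1.47e-21), with 79.3, 78 and 72.1 CPM under IL-4. Its small difference from IL-4, -0.18 (edgeR adjusted p = 0.0298), was lost when any of 5 of the 6 libraries (IL-4 replicates 1 and 2 and each valinomycin library) was left out, at -0.15 to -0.17 (edgeR adjusted p 0.0815 to 0.101).

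The effectors of alternative activation were nearly all raised: 31 of 36 tested rose and 3 fell, a median log2 fold change of 2.34, and IL-4 alone gave the same counts with a median of 2.38. Against IL-4, 9 of the 36 were higher and 14 lower, with a median of -0.16. Since STAT6 is known to bind palindromic half-sites 4 bases apart and other STAT factors those 3 bases apart, RefSeq promoter windows (GRCm38.p6, 250 bases before to 50 after the start) were searched on both strands for TTC and GAA with 4 bases between them and with 3 (TTCNNNGAA). Of 32851 windows 6.95% held the first and 8.3% the second. Among effectors with a window, 6 of 24 held the wider form and 4 the narrower. In the 402 tested raised program genes with a window the shares were 10.9% and 8.46%, against 6.68% and 8.11% of the 9489 tested genes with one. Matched stretches from 4 strongly raised genes, Retnla (chr16:48842439-48842498, plus strand), Pdcd1lg2 (chr19:29410812-29410871, plus strand), Chil3 (chr3:106167703-106167761, minus strand) and Il31ra (chr13:112580820-112580878, minus strand), are printed to show the spacing, 5′ to 3′, with the match in capitals. A match is a description of letters and not a binding site.
Retnla: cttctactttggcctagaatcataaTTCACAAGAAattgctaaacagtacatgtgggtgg
Pdcd1lg2: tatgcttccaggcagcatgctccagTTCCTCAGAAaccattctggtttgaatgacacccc
Chil3: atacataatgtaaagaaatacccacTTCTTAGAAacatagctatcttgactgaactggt
Il31ra: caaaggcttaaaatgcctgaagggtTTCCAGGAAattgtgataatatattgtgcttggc

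Arg1 (ENSMUSG00000019987, chr10:24915221-24927484 on GRCm38), which encodes the arginase that turns arginine into ornithine and urea, read 2.81, 2.98 and 2.27 CPM in unstimulated libraries, 1014, 1119 and 1119 CPM with IL-4 and 758, 808 and 896 CPM with IL-4 and valinomycin (log2 fold change 8.26, SE 0.10, edgeR adjusted p = 1.54e-25). The 3 groups did not overlap. Arg1 with valinomycin stood at 75.7% of its mean level under IL-4 alone (log2 fold change -0.40, SE 0.06, edgeR adjusted p = 6.89e-06). Retnla (ENSMUSG00000061100, chr16:48842551-48844461), the secreted protein FIZZ1 whose promoter stretch opens the set above, was listed at 0, 0 and 0.0733 CPM unstimulated, a single count in all, and reached 67.8, 50.4 and 49.1 CPM with IL-4 and 31, 24.1 and 22.4 CPM with valinomycin. The ratio of the valinomycin to the unstimulated group was 937 (95% counting interval 168 to 37060). Retnla was the effector furthest below IL-4 alone, at 46.3% of it (log2 fold change -1.10, SE 0.15, edgeR adjusted p = 1.38e-04).

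Mrc1 and Chil3 stayed nearer to their IL-4 level than Arg1 or Retnla, while Pdcd1lg2 fell short of it about as Arg1 did. Mrc1, the mannose receptor, read 731, 739 and 766 CPM unstimulated, 5753, 4948 and 4962 CPM with IL-4 and 5155, 5022 and 4566 CPM with valinomycin (log2 fold change 2.72, SE 0.06, edgeR adjusted p = 4.03e-20). The valinomycin and IL-4 libraries of Mrc1 overlapped, with a difference of -0.09 (SE 0.06, edgeR adjusted p = 0.268). Chil3, a chitinase-like lectin also called Ym1, rose from 43.7, 45.9 and 48.3 to 226, 236 and 203 CPM (log2 fold change 2.27, SE 0.06, edgeR adjusted p = 1.72e-19), with 254, 240 and 247 CPM under IL-4. Mgl2, a lectin of alternatively activated macrophages, rose from 1.11, 1.4 and 0.88 to 99.1, 97.3 and 101 CPM (log2 fold change 6.47, SE 0.10, edgeR adjusted p = 5.75e-24) and was slightly below its 127, 117 and 124 CPM under IL-4 (log2 fold change -0.30, SE 0.05, edgeR adjusted p = 3.51e-05). Pdcd1lg2, the PD-1 ligand PD-L2, rose from 0.17, 0.186 and 0.0733 to 43.8, 52.9 and 47.8 CPM (log2 fold change 8.34, SE 0.21, edgeR adjusted p = 5.78e-20). It was below its 59.5, 65.5 and 59.7 CPM under IL-4 (log2 fold change -0.36, SE 0.07, edgeR adjusted p = 4.95e-04). On the same list Fn1, Ccl12 and Il4i1 were further below IL-4 than Arg1 (-0.76, -0.71 and -0.54), while 9 of the 36 were higher than with IL-4.

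The chemokine gene Ccl24 rose from 0.596, 0.558 and 0.293 to 5.58, 4.29 and 5.45 CPM (log2 fold change 3.42, SE 0.26, edgeR adjusted p = 9.06e-11). It was below its 6.71, 7.49 and 7.19 CPM under IL-4 (log2 fold change -0.48, SE 0.15, edgeR adjusted p = 0.0119). That call was lost without valinomycin replicate 2 (-0.36, edgeR adjusted p = 0.0889). Ccl17 was too low to be tested, with no count in unstimulated libraries and 0.535, 0.429 and 0.16 CPM with valinomycin, against 0.436, 0.558 and 0.156 CPM with IL-4. For Chil4, with no unstimulated count and 0.917, 0.429 and 0.801 CPM with valinomycin, the group was at least 8.73-fold higher against a floor of 3 counts over the group. For the 10 genes raised most, and for extremes named below, genes were ranked within limits. These were a mean of 5 CPM or more in the higher group, compared groups that do not overlap and no Gm or Rik name. The remaining genes among the 10 were Rasgrp1, an exchange factor that activates Ras, Msx3, a homeobox factor, and Il31ra, a receptor chain for the cytokine IL-31. Scn3a, a sodium channel, and Chac1, which is described with the stress genes, complete them. Rasgrp1 went from 0.426, 0.279 and 0.147 to 58.7, 59.9 and 57.2 CPM (log2 fold change 7.67, SE 0.20, edgeR adjusted p = 1.02e-17), as it did with IL-4 at 69.9, 57 and 58.5 CPM. Msx3 rested on 3 unstimulated counts, so its ratio was 457 (95% counting interval 156 to 2217), and those of Il31ra and Scn3a, also on 3 counts, were 186 (63.2 to 903) and 180 (61.2 to 875). Msx3 with valinomycin, at 39.4, 37 and 37.2 CPM, was below the 63.1, 60.7 and 67.9 CPM of IL-4 alone (log2 fold change -0.75, SE 0.07, edgeR adjusted p = 4.81e-09).

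**Figure D3:**
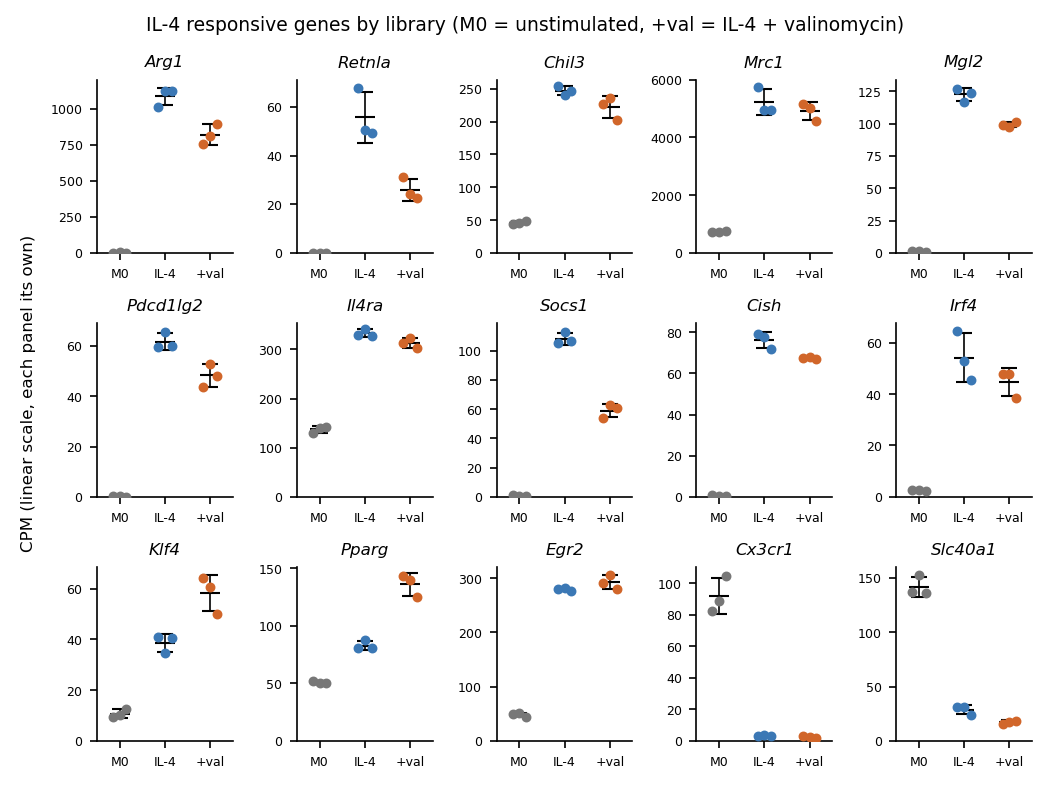
CPM (y, linear, each panel on its own scale) of 15 IL-4 responsive genes in 3 unstimulated (M0), 3 IL-4 and 3 IL-4 plus valinomycin (+val) libraries, points for libraries and bars for mean ± SD. Arg1, Retnla and Socs1 with valinomycin lie between the other groups, Klf4 and Pparg lie above both, and Cx3cr1 and Slc40a1 lie below the unstimulated libraries under IL-4 with or without valinomycin.

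Transcription factors induced by IL-4 were raised in 22 of 27 tested cases and lowered in 3, with a median log2 fold change of 1.45. IL-4 alone raised 19 and lowered 3, with a median of 0.98, and the direct comparison called 13 higher and 9 lower with valinomycin. Klf4, a zinc finger factor that works with STAT6, read 9.45, 10.1 and 12.7 CPM unstimulated, 40.9, 34.7 and 40.5 CPM with IL-4 and 64.1, 60.6 and 50.2 CPM with valinomycin (log2 fold change 2.43, SE 0.12, edgeR adjusted p = 2.17e-11). The valinomycin libraries of Klf4 lay above both other groups (log2 fold change 0.59, SE 0.10, edgeR adjusted p = 1.85e-04 against IL-4). Pparg, the nuclear receptor of lipid metabolism, behaved alike in order, at 52.3, 50.5 and 50.2, then 80.4, 87.7 and 80.2, then 144, 139 and 125 CPM (log2 fold change 1.42, SE 0.06, edgeR adjusted p = 8.04e-16), and was 0.72 log2 units above IL-4 (SE 0.06, edgeR adjusted p = 6.58e-10).

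Irf4, a factor needed for alternative activation, rose from 2.73, 2.79 and 2.49 to 47.9, 47.7 and 38.5 CPM (log2 fold change 4.06, SE 0.17, edgeR adjusted p = 1.22e-12), and its values under IL-4, 64.3, 52.8 and 45.4 CPM, overlapped those with valinomycin. Egr2, an early zinc finger factor, rose from 49.4, 50.9 and 45 to 292, 306 and 281 CPM (log2 fold change 2.60, SE 0.08, edgeR adjusted p = 3.96e-15), with 279, 281 and 276 CPM under IL-4. Bhlhe40 and Atf3 were higher than with IL-4 alone as well as higher than unstimulated, with log2 fold changes of 2.47 and 1.45 against unstimulated and 0.64 and 0.85 against IL-4, while Tfec was lower than with IL-4 (2.10 and -0.58). Etv1, the ETS factor the series knocks down, read 11.8, 12 and 10.9 CPM and 12, 13.2 and 15.2 CPM (log2 fold change 0.22, SE 0.10, edgeR adjusted p = 0.0766) and did not pass the test. Without valinomycin replicate 1 it passed, at 0.31 (edgeR adjusted p = 0.0229).

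Some raised program genes went past their IL-4 level. Those named were ranked within the limits given above, so genes outside these limits can lie further from IL-4. The 6 furthest above it were Csrnp1, a nuclear protein induced by AXIN1, Sphk1, which makes sphingosine 1-phosphate, Cd83, a surface protein of activated antigen-presenting cells, the metalloprotease gene Amz1, Dnmt3aos and Wwc1. Csrnp1 read 6.13, 7.54 and 6.97 CPM unstimulated, 28.6, 28.9 and 24.6 CPM with IL-4 and 96.1, 84.3 and 89 CPM with valinomycin (log2 fold change 1.72, SE 0.07, edgeR adjusted p = 2.67e-14 against IL-4). Cd83 read 38.1, 36.1 and 38.4, 64.3, 65.6 and 52.3 and 177, 148 and 137 CPM in the same order (log2 fold change 1.34, SE 0.09, edgeR adjusted p = 7.30e-08 against IL-4). In both genes the valinomycin libraries lay above all others, and Sphk1, Amz1 and Wwc1 differed from IL-4 by 1.41, 1.31 and 1.26. Dnmt3aos, at 1.28 above IL-4, lies antisense to another gene and whether the counting used strand is not given in the sources used here, which leaves its value uncertain.

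Others fell short of it. Within the same limits, the 6 furthest below IL-4 were Tuba8, Arc, B3gnt7, Retnla, Ccl2 and Itpripl1. Arc, a protein known from neuronal plasticity, read 4.77, 4.84 and 3.52 CPM unstimulated, 18, 12.5 and 16 CPM with IL-4 and 4.28, 3.86 and 6.09 CPM with valinomycin. The valinomycin and unstimulated libraries of Arc overlapped (log2 fold change 0.13, SE 0.21, edgeR adjusted p = 0.614), and both lay below IL-4 (log2 fold change -1.70, SE 0.16, edgeR adjusted p = 3.98e-08). Ccl2, the monocyte chemokine, was at 30.7, 29.1 and 40.2, 359, 311 and 371 and 197, 148 and 183 CPM in the same order (log2 fold change -0.98, SE 0.15, edgeR adjusted p = 9.25e-04 against IL-4). B3gnt7, a glycosyltransferase, and Tuba8, an alpha tubulin, remained raised against unstimulated cells (3.08 and 3.13) but differed from IL-4 by -1.38 and -1.77. Itpripl1 read 34, 34.8 and 38.1 CPM and 32, 31.9 and 29.3 CPM with valinomycin, against 65.5, 59.8 and 58.1 CPM with IL-4 (log2 fold change -0.97, SE 0.08, edgeR adjusted p = 9.48e-10 against IL-4).

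Some raised program genes at 5 CPM or more, and without a Gm or Rik name, were not called against unstimulated cells. The 6 of these with the largest control shRNA change were Sema6d, Tifab, P2ry12, Slc18a1, P2ry14 and Megf9. Their control shRNA changes ran from 1.33 to 2.48, and their wild type changes with valinomycin from -0.19 to 0.34. P2ry12, a purinergic receptor, and Megf9 were not called in wild type cells under IL-4 alone either (-0.17 and 0.26). Sema6d, a semaphorin, and Tifab were called there (0.63 and 0.51) and were lower with valinomycin than with IL-4 (-0.69, edgeR adjusted p = 2.30e-04, and -0.70, 8.45e-04).

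The 10 genes lowered most, ranked within the limits given for the 10 raised most, were picked against the same unstimulated libraries that the IL-4 comparison uses. Their like direction under IL-4 is therefore not a result. Cx3cr1 (chr9:119901616-120069879), the fractalkine receptor of resident macrophages, read 82.8, 88.9 and 105 CPM unstimulated, 2.88, 3.67 and 2.97 CPM with IL-4 and 3.06, 2.23 and 1.6 CPM with valinomycin (log2 fold change -5.32, SE 0.13, edgeR adjusted p = 7.73e-19). Its IL-4 and valinomycin libraries overlapped. Slc40a1, the iron exporter ferroportin, fell from 137, 153 and 136 to 15.6, 17.8 and 18.6 CPM (log2 fold change -3.04, SE 0.13, edgeR adjusted p = 3.84e-10), and the valinomycin libraries lay below the 30.9, 31.2 and 24.3 CPM of IL-4 (log2 fold change -0.73, SE 0.15, edgeR adjusted p = 0.00189). The others of the 10 were Ifit3, Ifit1, Sncaip, Klra2, Nanos1, S1pr1, Adgb and Dppa3, with log2 fold changes from -3.33 to -2.28, and all 8 also fell with IL-4 alone (-3.06 to -1.78). In the control shRNA libraries, which share no sample, IL-4 did not call Ifit3, Ifit1 or Dppa3 (edgeR adjusted p = 0.194, 0.424 and 0.091). The rest of the 10 were called lower there. S1pr1, the receptor for sphingosine 1-phosphate, fell from 82.3, 85 and 82.4 to 13.1, 17.4 and 16.7 CPM (log2 fold change -2.41, SE 0.09, edgeR adjusted p = 1.28e-16).

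Another set of genes lowered by IL-4 alone was not lowered, or was lowered less, when valinomycin was present. Cxcr4 (chr1:128588199-128592293), the receptor for the chemokine CXCL12, read 92.5, 88.4 and 81.3 CPM unstimulated, 30.4, 36.4 and 33.4 CPM with IL-4 and 184, 174 and 157 CPM with valinomycin. The 3 groups did not overlap, and Cxcr4 rose against unstimulated cells (log2 fold change 0.97, SE 0.08, edgeR adjusted p = 4.92e-08) while it fell with IL-4 alone (-1.38). Clec4e, the pattern receptor Mincle, read 11.7, 10.7 and 12.8, 2.18, 2.63 and 2.66 and 18.5, 10.6 and 8.73 CPM in the same order. It overlapped the unstimulated libraries (log2 fold change 0.11, SE 0.22, edgeR adjusted p = 0.722) and lay above IL-4 (log2 fold change 2.34, SE 0.30, edgeR adjusted p = 8.19e-05). Thbs1, thrombospondin 1, read 47.2, 53.6 and 54.3, 13.6, 12.8 and 12.7 and 32, 37.6 and 53.1 CPM (log2 fold change 1.65, SE 0.19, edgeR adjusted p = 1.15e-04 against IL-4), and its change against unstimulated cells was -0.34 (edgeR adjusted p = 0.107), or -0.57 (4.4e-06) without valinomycin replicate 3. Nfkbiz, an inhibitor-like regulator of NF-kappaB, fell less than with IL-4 alone (-0.55 and -2.42, a difference of 1.86, edgeR adjusted p = 8.13e-08), and Serpinb8 was 1.68 above IL-4.

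Rasd2, a small GTPase lowered in control shRNA cells (-1.94), was not called with IL-4 in wild type cells and rose with valinomycin from 1.36, 1.02 and 0.66 to 24.5, 19.1 and 16.2 CPM (log2 fold change 4.31, SE 0.25, edgeR adjusted p = 4.42e-11). Sdc1, Cav1, Pdpn and Kdr were also lowered program genes not called against unstimulated cells, at -0.38, -0.33, -1.21 and -0.10. Cav1 and Pdpn did not differ from IL-4 alone by the test (0.20 and 0.04, edgeR adjusted p = 0.394 and 0.974). Pdpn, with an SE of 0.61, was not called with IL-4 alone either (-1.25, edgeR adjusted p = 0.131). Sdc1 was 0.60 above IL-4 (edgeR adjusted p = 0.024), a call lost without valinomycin replicate 3 or IL-4 replicate 1 or 2. Kdr, a receptor for VEGF, fell with IL-4 alone (-1.45) and was 1.35 higher with valinomycin (edgeR adjusted p = 6.74e-06). In the other direction, Cdca7, Cdc6, Pou2f2, Slc40a1, Ung and Gcnt1 were the lowered program genes furthest below IL-4 within the ranking limits given above. Their differences from IL-4 were -0.66 to -0.84, and lowered genes outside these limits can lie further below it. Cdc6 loads the replicative helicase and Ung removes uracil from DNA. In the wild type libraries IL-4 without the ionophore did not lower Ung (log2 fold change 0.07, edgeR adjusted p = 0.723).

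The replication genes as a list fell further than with IL-4 alone. Of 36 tested, 34 fell and 1 rose against unstimulated cells, with a median log2 fold change of -0.70. IL-4 alone lowered 31 and raised 1 (median -0.44), and 23 of the 36 were lower and 1 higher with valinomycin than with IL-4. Mcm6, a subunit of the replicative helicase, read 249.9, 249.6 and 277 CPM unstimulated, 182, 171 and 170.3 CPM with IL-4 and 151, 130.2 and 124 CPM with valinomycin, groups that did not overlap (log2 fold change -0.94, SE 0.06, edgeR adjusted p = 1.55e-11 and, against IL-4, log2 fold change -0.37, SE 0.06, edgeR adjusted p = 6.47e-05). Pcna, the sliding clamp, fell from 399.5, 408 and 419 to 237, 221 and 227 CPM (log2 fold change -0.84, SE 0.05, edgeR adjusted p = 1.35e-13).

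Mitosis genes took the opposite course against IL-4. Of 25 tested, 7 fell and 1 rose against unstimulated cells (median -0.10, the 1 being lost without unstimulated replicate 1 or 2 or valinomycin replicate 1 or 2), a share of lower genes near the 25.8% of all genes, while IL-4 alone lowered 17. With valinomycin 12 of the 25 were higher than with IL-4 and 0 lower by edgeR (0 also at an unadjusted p under 0.05 and with DESeq2), or 1 lower without valinomycin replicate 1. Kif23, a kinesin of cytokinesis, read 54.2, 52.6 and 51.4, 36.6, 38.3 and 41.2 and 48.4, 44 and 43.5 CPM unstimulated, with IL-4 and with valinomycin (log2 fold change 0.23, SE 0.07, edgeR adjusted p = 0.00868 against IL-4). The count of 7 became 4 without valinomycin replicate 3.

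Interferon response genes and targets of NRF2, the antioxidant transcription factor, mostly fell, with counts like those of wild type IL-4 libraries set against the same unstimulated ones. Of 34 interferon genes 26 fell and 3 rose (median -0.66), and IL-4 alone lowered 25 and raised 4 (median -0.67). Ifit1, an RNA-binding antiviral protein gene, read 12.5, 11 and 14.3 CPM unstimulated and 1.38, 1.46 and 1.52 CPM with valinomycin (log2 fold change -3.12, SE 0.22, edgeR adjusted p = 2.98e-11), and 1.83, 2.47 and 4.14 CPM with IL-4. Against IL-4, 11 were lower, but 4 without IL-4 replicate 3, 6 without valinomycin replicate 1 and 7 without valinomycin replicate 3, and Ifit1 lost its call without IL-4 replicate 3 (-0.57, edgeR adjusted p = 0.139). In the control shRNA libraries Ifit1, Ifit3, Oas2, Oas3 and Rtp4 were lower with IL-4 but not called. Their log2 fold changes there ran from -1.25 to -0.31 (edgeR adjusted p 0.194 to 0.539). Of 18 NRF2 targets 14 fell and 3 rose (median -0.46), with 15 lowered by IL-4 alone. Srxn1, which restores oxidized peroxiredoxins, fell from 198, 198 and 197 to 91.6, 99.4 and 102 CPM (log2 fold change -1.02, SE 0.05, edgeR adjusted p = 4.90e-14), while Osgin1 rose (1.29). In control shRNA cells IL-4 lowered both genes (-1.36 and -0.81), whereas in wild type cells IL-4 alone raised Osgin1 (1.08).

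Genes of the integrated stress response were mostly higher with valinomycin than in either other group. In this program stress kinases slow translation and the factor ATF4 turns on amino acid and stress genes. Of 36 tested members 29 rose and 1 fell against unstimulated cells, with a median log2 fold change of 1.15. IL-4 alone raised 14 and lowered 3 (median 0.20), and in the direct comparison 25 of the 36 were higher and 1 lower than with IL-4, the latter lost without IL-4 replicate 2 or 3 or valinomycin replicate 2 or 3. The letters TGATGNAA, which cover known ATF4 and C/EBP composite elements, were searched in the same promoter windows on both strands. They were in 3.97% of all windows, in 2.85% of tested genes with a window, in 11 of 30 stress list genes with a window, and in 15 of 138 (10.9%) of those at least 2-fold higher with valinomycin than with IL-4. Matched stretches are shown for 4 raised members, Chac1 (chr2:119351024-119351081, plus strand), Asns (chr6:7693210-7693257, minus strand), Nupr1 (chr7:126625548-126625605, minus strand) and Slc7a11 (chr3:50443647-50443704, minus strand), 5′ to 3′ with each match, on either strand, in capitals.
Chac1: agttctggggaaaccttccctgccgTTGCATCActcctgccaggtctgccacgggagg
Asns: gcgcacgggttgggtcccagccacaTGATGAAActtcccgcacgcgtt
Nupr1: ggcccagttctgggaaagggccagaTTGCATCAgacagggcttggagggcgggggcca
Slc7a11: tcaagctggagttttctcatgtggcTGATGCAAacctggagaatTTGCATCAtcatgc

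Atf4 itself read 149, 143 and 141 CPM unstimulated, 176, 186 and 179 CPM with IL-4 and 576, 551 and 484 CPM with valinomycin (log2 fold change 1.90, SE 0.06, edgeR adjusted p = 9.73e-19). The valinomycin libraries lay above both other groups (log2 fold change 1.57, SE 0.05, edgeR adjusted p = 8.03e-16 against IL-4). Ddit3, the factor CHOP of prolonged stress, read 24.9, 19.1 and 21.8, 24.1, 24 and 25.7 and 152, 150.1 and 120.4 CPM in the same order (log2 fold change 2.68, SE 0.10, edgeR adjusted p = 7.18e-14). Chac1 (ENSMUSG00000027313), which degrades glutathione, read 0.17, 0.0931 and 0.367 CPM unstimulated, 8 counts in all, 0.698, 0.638 and 1.02 CPM with IL-4 and 32.4, 32.8 and 22.4 CPM with valinomycin (log2 fold change 6.98, SE 0.27, edgeR adjusted p = 9.76e-16), and was far above IL-4 alone (log2 fold change 5.19, SE 0.21, edgeR adjusted p = 5.53e-14).

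Trib3, a pseudokinase that restrains ATF4, rose from 4.77, 5.21 and 4.25 to 54.3, 64 and 38.3 CPM (log2 fold change 3.46, SE 0.22, edgeR adjusted p = 6.81e-08), with 4.36, 6.86 and 4.84 CPM under IL-4. Gdf15, a secreted stress cytokine, rose from 14.1, 13 and 13.5 to 138, 97.5 and 87.8 CPM (log2 fold change 3.0, SE 0.20, edgeR adjusted p = 8.85e-07), with 9.5, 12.8 and 10.1 CPM under IL-4. Nupr1, a small stress-induced nuclear protein, rose from 3.66, 4.75 and 4.33 to 29.9, 24.9 and 17.3 CPM (log2 fold change 2.50, SE 0.23, edgeR adjusted p = 4.42e-07). The IL-4 libraries overlapped the unstimulated ones in Trib3 and Nupr1, and the valinomycin libraries of all 3 genes lay apart. Slc3a2, the heavy chain of amino acid transporters, rose from 375, 364 and 369 to 827, 794 and 699.6 CPM (log2 fold change 1.07, SE 0.05, edgeR adjusted p = 2.44e-14).

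Among ranked genes not called with IL-4 alone, those raised most by IL-4 with valinomycin were Rasd2, Trib3, Hspa1a, Gdf15, Ddit3, Nupr1, Cxcl2 and H2-K2. Hspa1a, an inducible heat shock protein, rose from 8.6, 7.17 and 6.6 to 106, 71.2 and 64 CPM (log2 fold change 3.43, SE 0.28, edgeR adjusted p = 5.85e-06), a value that is uncertain because reads may be split with the near-identical Hspa1b. H2-K2, a class I histocompatibility gene with close relatives, rose by 2.19 and is uncertain in the same way. Cxcl2, a neutrophil chemokine, rose from 3.24, 3.63 and 3.67 to 25.8, 16.4 and 16.2 CPM (log2 fold change 2.47, SE 0.20, edgeR adjusted p = 4.90e-09), against 2.62, 1.51 and 2.73 CPM with IL-4.

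**Figure D4:**
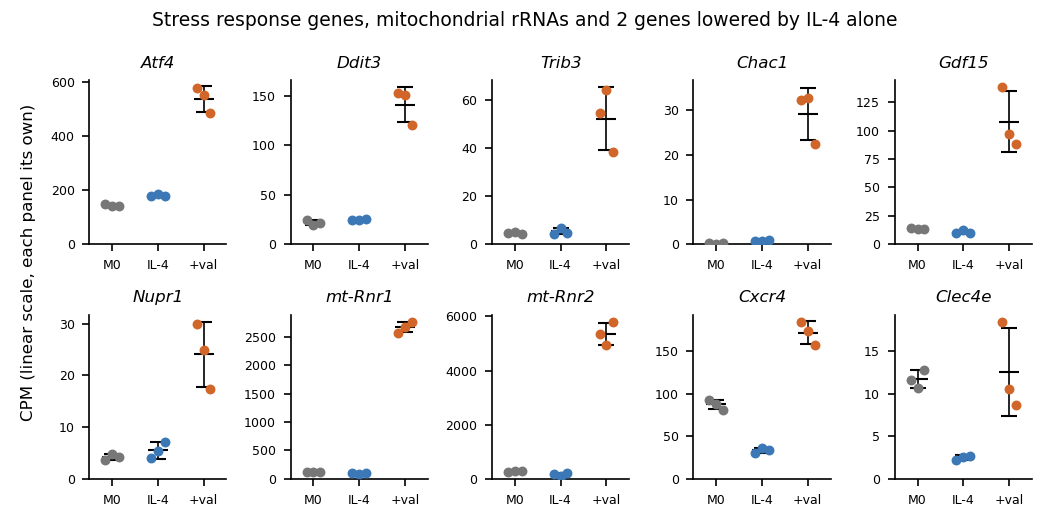
CPM (y, linear, each panel on its own scale) of 6 stress response genes, the mitochondrial rRNAs mt-Rnr1 and mt-Rnr2, and Cxcr4 and Clec4e in 3 unstimulated (M0), 3 IL-4 and 3 IL-4 plus valinomycin (+val) libraries, points for libraries and bars for mean ± SD. In the stress genes and rRNAs the valinomycin libraries lie above all others, and Cxcr4 and Clec4e fall with IL-4 alone and not with valinomycin.

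The ribosomal RNAs and most tested protein genes of the mitochondrial genome moved in opposite directions. The 12S ribosomal RNA mt-Rnr1 read 124, 129 and 130.2 CPM unstimulated, 96.5, 78.8 and 111 CPM with IL-4 and 2570, 2664 and 2748 CPM with valinomycin (log2 fold change 4.38, SE 0.11, edgeR adjusted p = 1.14e-12). The 16S ribosomal RNA mt-Rnr2 read 256, 282 and 306, 193, 111 and 214 and 5345, 4958 and 5774 CPM (log2 fold change 4.25, SE 0.23, edgeR adjusted p = 3.20e-07). Valinomycin libraries lay far above both other groups, and both rRNAs fell with IL-4 alone (-0.42 and -0.70). The libraries were made from poly(A) RNA, so these values count reads that passed that selection and not total rRNA. Of 13 mitochondrial protein genes only 8 passed the count filter and were tested. Of these 7 fell (median -0.56) and 0 rose by edgeR (0 also at an unadjusted p under 0.05 and with DESeq2), and 4 were lower than with IL-4. mt-Cytb, of complex III, read 1848, 1905 and 2107 CPM unstimulated, 2065, 1509 and 2054 CPM with IL-4 and 1256, 1225 and 1291 CPM with valinomycin (log2 fold change -0.64, SE 0.10, edgeR adjusted p = 1.93e-04). mt-Co1, of complex IV, fell by less (log2 fold change -0.20, SE 0.05, edgeR adjusted p = 0.00355). The call of mt-Nd6 (-1.17, edgeR adjusted p = 0.0221) was lost without unstimulated replicate 2 or 3 or valinomycin replicate 1 or 2, at -0.86 to -1.17 (adjusted p 0.051 to 0.0834).

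The nuclear genes of the respiratory chain stood near their unstimulated level. Of 36 complex I genes 5 rose and 8 fell (median -0.00), shares of both near or under those of all genes, and of 40 genes of complexes II to V 6 rose and 10 fell (median -0.00). IL-4 alone raised 23 of the 36 (median 0.22) and 25 of the 40 (median 0.16) and lowered 0 by edgeR (0 also at an unadjusted p under 0.05 and with DESeq2). The direct comparison put 24 of the 36 and 27 of the 40 lower with valinomycin than with IL-4, medians -0.26 and -0.25, against 18.9% of all genes, and 0 higher (0 also at an unadjusted p under 0.05 and with DESeq2). Ndufb7, an accessory subunit of complex I, read 57.8, 55.7 and 56.1, 60.9, 74.5 and 67.3 and 48.5, 47.3 and 47.8 CPM unstimulated, with IL-4 and with valinomycin (log2 fold change -0.50, SE 0.07, edgeR adjusted p = 3.46e-06 against IL-4). The valinomycin libraries lay below both other groups. Uqcrc1, a core subunit of complex III, kept part of its rise, at 129, 135 and 135, 189.7, 201 and 194 and 178, 161 and 162 CPM (log2 fold change 0.33, SE 0.05, edgeR adjusted p = 3.61e-06). In control shRNA cells IL-4 called Uqcrc1 and Atp5b higher (0.36 and 0.19), but not the complex I genes Ndufb7 and Ndufs3. The latter changed by 0.03 and 0.15 there (edgeR adjusted p = 0.78 and 0.0953). Each of these genes was called higher with IL-4 in wild type cells. The counts against unstimulated cells were sensitive to single libraries: without valinomycin replicate 3, 8 complex I genes rose and 4 fell and 6 genes of complexes II to V fell, while 4 complex I genes fell without unstimulated replicate 3 and 2 rose without unstimulated replicate 1, unstimulated replicate 2 or valinomycin replicate 2. DESeq2 called 2 complex I genes higher and 4 lower.

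Of 25 tricarboxylic acid cycle genes 8 rose and 4 fell, beside 26.9% and 25.8% of all genes, and 15 had risen with IL-4 alone. Against IL-4, 12 were lower and 1 higher, beside 18.9% and 19.4% of all genes (0 higher without IL-4 replicate 2). Pdhb, of pyruvate dehydrogenase, rose (0.41) and cytosolic Idh1 fell (-0.59). Of 7 genes of the malate-aspartate shuttle, which carries reducing equivalents into mitochondria, 3 rose and 3 fell, and 1 was higher and 5 lower than with IL-4. The same shares of all genes stand beside these counts. The 5 became 2 without the filter on low counts or without IL-4 replicate 3 or valinomycin replicate 3, and 3 with DESeq2 or without valinomycin replicate 1. Got1, its cytosolic aminotransferase, read 44.5, 45.1 and 39.7 CPM unstimulated, 46.6, 48.1 and 42.8 CPM with IL-4 and 66.1, 67.1 and 61.5 CPM with valinomycin (log2 fold change 0.59, SE 0.06, edgeR adjusted p = 3.63e-08). The valinomycin libraries of Got1 lay above both other groups, with log2 fold change 0.50, SE 0.06, edgeR adjusted p = 1.35e-06 against IL-4. Mdh2 and Slc25a13 of the same shuttle rose by 0.19 and 0.50, with differences from IL-4 of -0.20 (edgeR adjusted p = 0.00146) and -0.13 (0.0691), and Mdh1 fell (-0.21).

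Of 25 glycolysis genes 9 rose and 6 fell (median 0.13), near the 26.9% and 25.8% of all genes. Against IL-4, 5 were higher (2 without IL-4 replicate 1 or 3 or valinomycin replicate 2) and 4 lower (7 without IL-4 replicate 1, and 2 without IL-4 replicate 2 or 3 or valinomycin replicate 1 or 3). Among all genes 19.4% were higher and 18.9% lower than with IL-4. Pfkfb3, which makes the allosteric activator of phosphofructokinase, read 88.6, 82.5 and 77.6, 64.9, 82.1 and 69.2 and 158, 173 and 164 CPM unstimulated, with IL-4 and with valinomycin (log2 fold change 0.99, SE 0.07, edgeR adjusted p = 1.32e-09), and fell slightly with IL-4 alone (-0.20). Its relative Pfkfb4 rose less than with IL-4 alone (0.76 and 1.04, a difference of -0.28, edgeR adjusted p = 9.85e-04). Of 24 fatty acid oxidation genes 3 rose and 4 fell (2 without unstimulated replicate 3 or valinomycin replicate 1), while IL-4 alone raised 8, and 9 were lower and 2 higher than with IL-4 (1 higher without IL-4 replicate 2 or 3 or valinomycin replicate 2). Their shares against unstimulated cells lay under the 26.9% and 25.8% of all genes. The share lower than with IL-4 lay above the 18.9% of all genes. Of 24 cholesterol synthesis genes 3 rose and 9 fell, beside 26.9% and 25.8% of all genes, the 9 becoming 5 without unstimulated replicate 3 or valinomycin replicate 1 and 14 without valinomycin replicate 2. Idi1 and Sc5d fell (-0.85 and -0.83), as they did with IL-4 (-0.80 and -0.92).

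Inflammatory mediators and activity-regulated early genes rose in larger shares than all genes. Of 22 mediators 11 rose and 3 fell (median 0.93), and 10 were higher and 2 lower than with IL-4 alone. Osm, the cytokine oncostatin M, read 6.81, 6.98 and 7.33 CPM unstimulated, 8.81, 12.4 and 10.9 CPM with IL-4 and 42.6, 34.2 and 37.4 CPM with valinomycin (log2 fold change 2.43, SE 0.12, edgeR adjusted p = 1.49e-14). Tnfaip3, the NF-kappaB inhibitor A20, rose from 47.8, 50.7 and 47.1 to 159.7, 151 and 161 CPM (log2 fold change 1.70, SE 0.07, edgeR adjusted p = 1.25e-14), with 72.3, 83 and 89.4 CPM under IL-4. Both genes lay above their IL-4 libraries with valinomycin. Of 24 early genes 16 rose and 3 fell (median 0.47). Fosl2, an AP-1 subunit, rose as with IL-4 (2.42 and 2.34), whereas Sik1, a salt-inducible kinase, read 17.4, 16.2 and 16.5, 16.2, 16.2 and 16.4 and 52.5, 48.9 and 54.5 CPM (log2 fold change 1.64, SE 0.08, edgeR adjusted p = 6.33e-15) and did not pass the test with IL-4 alone (-0.04).

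Antigen presentation genes kept a smaller rise. Of 21 tested 10 rose and 1 fell against unstimulated cells (median 0.14, the 1 being lost whichever of the 6 libraries was left out), IL-4 alone raised 14 (median 0.24), and 8 were lower than with IL-4 (4 to 5 without IL-4 replicate 2 or without valinomycin replicate 1 or 3). Of all genes 26.9% rose and 25.8% fell against unstimulated cells, and 18.9% were lower than with IL-4. H2-DMa, which loads peptides on class II molecules, read 27.2, 25.2 and 23.3, 72.1, 70.8 and 67 and 49.1, 51.2 and 47 CPM unstimulated, with IL-4 and with valinomycin, groups that did not overlap (log2 fold change -0.51, SE 0.06, edgeR adjusted p = 7.80e-07 against IL-4). Cd40, a costimulatory receptor, rose from 10.5, 9.12 and 10.4 to 54.3, 52.2 and 37.3 CPM (log2 fold change 2.25, SE 0.13, edgeR adjusted p = 1.94e-10). Among 20 macrophage identity genes 8 rose and 11 fell, beside 26.9% and 25.8% of all genes, from -5.32 for Cx3cr1 to 2.72 for Mrc1. Fcgr1, a high-affinity antibody receptor, fell from 164, 161 and 176 to 47.2, 45.8 and 43.2 CPM (log2 fold change -1.88, SE 0.05, edgeR adjusted p = 4.96e-19) and was below IL-4 (-0.65).

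**Figure D5:**
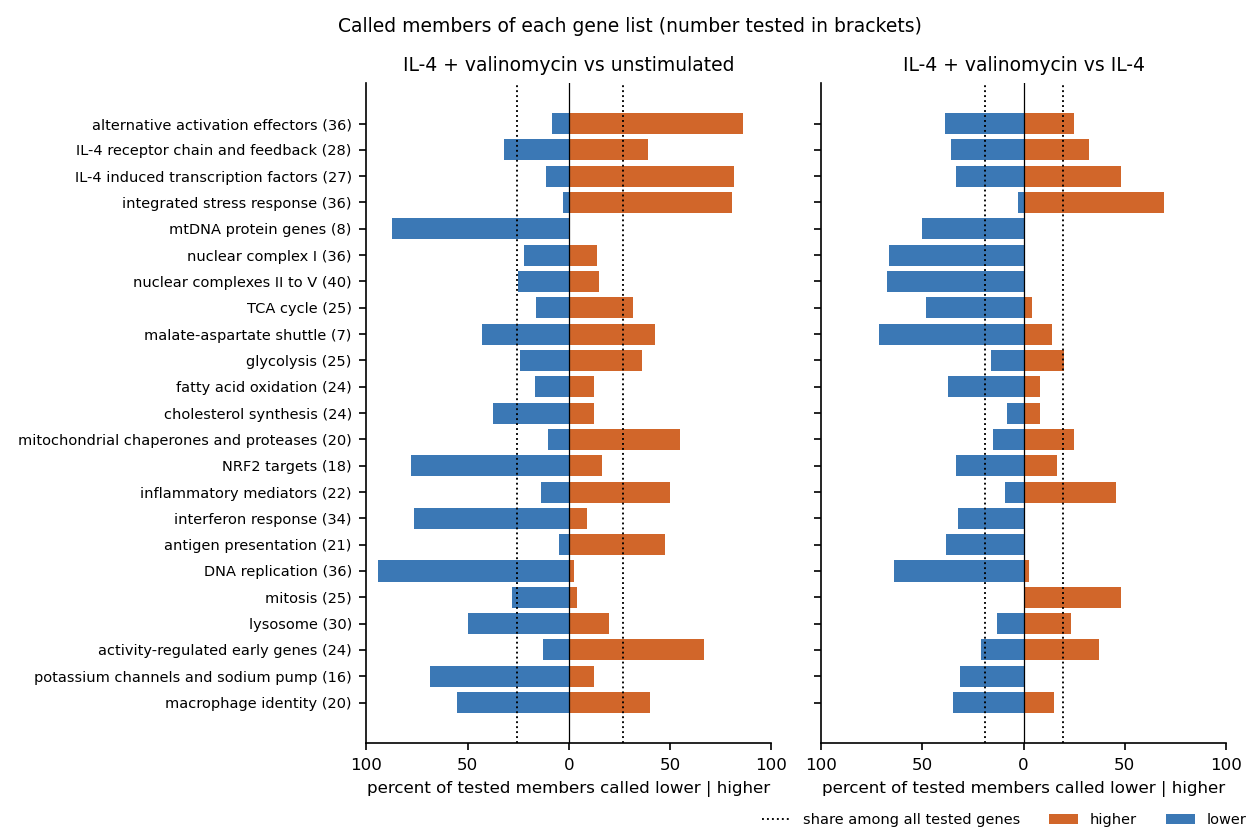
Percent of tested members of each gene list called lower (left of 0) or higher (right of 0) in IL-4 plus valinomycin against unstimulated cells and against IL-4, with dotted lines at the share among all tested genes. Alternative activation (31 of 36 higher) and stress response genes (29 of 36) stand out in the first panel, and the respiratory chain lists (24 of 36 and 27 of 40 lower) in the second.

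Among ranked genes not called with IL-4 alone, those lowered most were Amd1, Angptl4, Bbs12, mt-Nd6, Igsf9, Crip1, Polr3g and Tns4. Their log2 fold changes were -1.37 to -1.01. Amd1, which makes the aminopropyl donor of polyamine synthesis, read 31.2, 32.6 and 35.2 CPM unstimulated, 33.7, 26.1 and 31.5 CPM with IL-4 and 13.6, 12.1 and 12.5 CPM with valinomycin (log2 fold change -1.37, SE 0.10, edgeR adjusted p = 2.10e-11). Crip1, a small LIM domain protein, read 225, 223 and 229.5, 198, 222 and 206 and 114, 103 and 100.4 CPM (log2 fold change -1.09, SE 0.05, edgeR adjusted p = 2.51e-14). In both genes the valinomycin libraries lay below all others. Angptl4, an inhibitor of lipoprotein lipase, fell from 11.1, 11.9 and 13.8 to 4.36, 5.92 and 4.17 CPM (log2 fold change -1.36, SE 0.14, edgeR adjusted p = 9.39e-09).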

How the data were processed

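Raw counts of reads for each Ensembl gene were deposited by the authors. STAR, featureCounts and the GRCm38 build are named in the submitters' processing notes, with versions and strand setting not given in the sources used here. Libraries were stranded poly(A) libraries, per the labels' protocols. All 12 wild type libraries were fitted in 1 model with edgeR 4.0.16 in R 4.3.3 (TMM, filterByExpr, robust quasi-likelihood test, Benjamini-Hochberg adjustment over 12824 genes), and the 18 shRNA libraries likewise (12382 genes). The standard error (SE) is the log2 fold change over the square root of F. CPM used TMM library sizes. Symbols came from GENCODE M21, which matched 42548 of 43629 IDs (97.52%), leaving 0.153% of reads on the rest. The control shRNA IL-4 and unstimulated libraries held 9209367 to 20658411 counts. Intervals of ratios are exact and, like floors of 3 counts, cover counting error only. All replicate pairs differed by more than sampling noise. Nothing in the labels ties replicates to different mice or cultures, and the p-values therefore cover the spread among these libraries alone, possibly a technical one. Same-numbered libraries of different groups were not paired: correlations of their deviations ran from -0.0758 to 0.123.

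The members and lists were chosen with earlier results of these data known. Named genes were a fixed set of IL-4, stress and mitochondrial genes, the 10 raised and 10 lowered most, 6 program genes in each direction furthest from IL-4 and 6 not called, 8 raised and 8 lowered among those not called with IL-4 alone, and up to 4 members per list by smallest adjusted p, the extremes at 5 CPM or more with groups that do not overlap. Genes with a Gm or Rik model name were left out of the extremes and of the genes not called. Alternatives were RLE scaling, DESeq2 1.42.0, no filter, only the compared groups, a replicate block, mitochondrial genes left out, each library left out and other program definitions. The test was checked on simulated data with far fewer changed genes than were called here, so that check does not cover scaling at this breadth of change.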

Additional observations from a re-analysis of the deposited data

How the results depend on the processing

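No named gene's called change reversed under any alternative run, but the balance of complex I genes did, from 5 higher and 8 lower than unstimulated to 8 and 4 without valinomycin replicate 3. The number of genes differing between IL-4 with valinomycin and no stimulus ran from 5810 to 6874 around 6760, and the program genes higher with valinomycin from 449 to 470 around 463 and lower from 277 to 298 around 293, over rescaling, DESeq2, filters and left-out libraries. With the program defined at 4-fold, 193 of 202 raised genes were higher and 27 of 36 lowered genes were lower, and with it defined in Etv1 shRNA cells 298 of 334 and 55 of 79. IL-4 alone gave 196 and 31 at 4-fold, and 308 and 66 in the Etv1 shRNA definition. Medians of the lowered genes were -1.43 with valinomycin and -1.70 with IL-4 at 4-fold. In the Etv1 shRNA definition they were -0.78 and -0.75, the other order. DESeq2 called 35 genes at least 2-fold lower with valinomycin than with IL-4, against 53. The lowered program genes that were higher with valinomycin than in unstimulated cells, 16 of them, ranged from 9 to 17 over all alternatives and from 9 to 13 over the left-out libraries. A replicate block gave 6874 called genes, 467 raised and 298 lowered program genes, and called Thbs1 (-0.35, edgeR adjusted p = 0.016), Pdpn (-1.24, 0.024), Cav1 (-0.33, 0.0435) and Ppbp (-0.48, 0.0413) against unstimulated cells. Of named gene calls 4061 kept their side of the threshold, 108 lost and 44 gained a call. Sdc1 and Cav1 passed against unstimulated cells when only the compared groups were fitted (-0.38, edgeR adjusted p = 0.00209, and -0.34, 0.0105). No scaling moved the median of all genes by over 0.1. At this depth genes under about 0.3 CPM cannot be compared.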

Other observations

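Of 20 mitochondrial chaperone, protease and import genes 11 were higher and 2 lower (1 lower whichever of the 6 libraries was left out) with IL-4 and valinomycin than in unstimulated cells, and IL-4 alone raised 11 and lowered 1. Against IL-4, 5 were higher and 3 lower (median -0.03), beside 19.4% and 18.9% of all genes. Hspa9, the chaperone mortalin that pulls proteins into the matrix, had log2 fold changes of 0.72 (SE 0.05, edgeR adjusted p = 2.1e-11) against unstimulated cells and 0.31 (SE 0.05, edgeR adjusted p = 4.5e-05) against IL-4. Grpel2, a nucleotide exchange factor for mortalin, was higher by 0.73 and 0.39 in the same comparisons, and Tomm40, the pore of the outer membrane, by 0.53 against unstimulated cells, with a difference from IL-4 of -0.13 (edgeR adjusted p = 0.119).

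Of 30 lysosome genes 15 fell and 6 rose, beside 25.8% and 26.9% of all genes, and IL-4 alone lowered 11 and raised 5. Against IL-4, 7 were higher (4 without IL-4 replicate 3) and 4 lower (7 without IL-4 replicate 1 or with a replicate block). Of all genes 19.4% were higher and 18.9% lower than with IL-4. The proton pump subunits Atp6v1a and Atp6v1h rose by 0.52 and 0.55, while Gusb, a lysosomal glucuronidase, fell by 0.61 and Scarb2, a lysosomal membrane protein, fell by 0.79. Of 16 potassium channel, cotransporter and sodium pump genes 11 fell and 2 rose, and IL-4 alone lowered 8. Kcnj2, an inward rectifier, fell by 1.39 (edgeR adjusted p = 5.6e-12) and by 1.34 with IL-4 alone, on the log2 scale. Slc12a7, a potassium chloride cotransporter, rose by 0.69.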
